A study of Mus musculus with 2 samples.

Results

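The 45 genes described here encode proteins of DNA replication (22 genes) and of mitosis (23 genes). They were taken by name from the 32285 genes of a single-nucleus count matrix, and all 45 were present. The matrix came from nuclei sorted as those of macrophages in mammary tumours (tumour-associated macrophages, TAMs), in 2 samples, 1 for each genotype. The MYC-PyMT mice carry the polyoma middle T oncogene (PyMT), S100a8-cre and a Rosa26-LSL-MYC allele, which cre switches on in cells that use the promoter of the neutrophil gene S100a8. The control-PyMT mice carry PyMT, and the labels give no further allele for them. Both were backcrossed to B6, irradiated at 7 weeks of age, given bone marrow of Fcgr1-cre Rosa26LSL-H2B-mCherry/+ donors, moved to a low protein diet 2 weeks later and killed after 6 weeks on it. In donor cells that have used the Fcgr1 promoter the nuclei thus carry mCherry, and the second sort took mCherry-positive nuclei. For the donors no MYC allele is named, and the labels do not say how many mice were pooled.

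In a dividing cell, the Mcm proteins are loaded on DNA with the help of Cdc6 and Cdt1, and polymerases then copy the strands around the sliding clamp Pcna. Cdk1 with its B cyclins later drives entry into mitosis, when condensins compact the chromosomes, kinetochore proteins tie them to the spindle, and anillin, Ect2 and formins shape the cleavage furrow. Replication genes are classical targets of the E2F factors, whereas many mitosis genes are switched on later through a promoter element called the cell cycle genes homology region (CHR). Tissue macrophages are known to divide in place as well as to come from monocytes, which enter from blood.

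Unique molecular identifiers (UMIs) count distinct molecules. After filters, 1812 nuclei with 7342649 UMIs remained, 5858216 of them in well 1 and 1484433 in well 2. No label ties a well to a genotype, so MYC-PyMT and control-PyMT were not compared, the matrix was treated as 1 pooled sample, and no test was made. Intervals are exact 95% intervals for counting error alone and hold no spread between mice or libraries. Those of UMI counts also take UMIs as independent, although member UMIs lay clustered in few nuclei. The wells shared 9 barcode sequences. Macrophage nuclei (1052) were those with at least 3 UMIs of Ptprc, Csf1r, Adgre1 and Mertk, and epithelial nuclei (363) those with at least 1000 CPM (counts scaled to a common library total) of Epcam, Krt8, Krt18, Cdh1 and Elf5. Nuclei that met both rules (78) or neither (319) were kept apart. Markers went with the names, since 10 macrophage markers summed to 5281 CPM in macrophage nuclei and 547 CPM in epithelial nuclei, and 10 epithelial markers to 1523 CPM and 8475 CPM in that order. The sort required CD45 and mCherry, and 363 of 1812 nuclei met the epithelial rule. Median depth was 3144 UMIs in macrophage and 1199 UMIs in epithelial nuclei, so shares of nuclei were computed after thinning each nucleus to 1500 UMIs, which left out 102 macrophage and 202 epithelial nuclei as too shallow.

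The promoters of the mitosis and replication genes differed in the short motifs they hold. The sequences below are the 120 bases before the RefSeq start site on GRCm38.p6 (the assembly named mm10), shown because they hold these motifs close to the start in 4 mitosis genes of the chromosomes and the spindle and in 3 replication genes of the helicase, nucleotide supply and licensing control. Capitals mark a CHR (TTTGAA, or TTCAAA where it lies on the other strand) or an E2F site (TTCCCGC or TTGGCGC). The mitosis genes are Mki67 at chr7:135716380-135716499 (minus strand), Top2a at chr11:99024190-99024309 (minus strand), Ncapg at chr5:45669805-45669924 (plus strand) and Kif11 at chr19:37376262-37376381 (plus strand). The replication genes are Dtl at chr1:191575545-191575664 (minus strand), Mcm6 at chr1:128359706-128359825 (minus strand) and Rrm1 at chr7:102441575-102441694 (plus strand).
Mki67: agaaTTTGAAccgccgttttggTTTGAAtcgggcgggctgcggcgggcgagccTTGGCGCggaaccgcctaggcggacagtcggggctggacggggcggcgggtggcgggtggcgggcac
Top2a: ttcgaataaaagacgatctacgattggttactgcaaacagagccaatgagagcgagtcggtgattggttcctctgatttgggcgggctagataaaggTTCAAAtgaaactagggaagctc
Ncapg: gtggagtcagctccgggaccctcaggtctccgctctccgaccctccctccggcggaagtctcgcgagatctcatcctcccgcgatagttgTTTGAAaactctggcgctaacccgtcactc
Kif11: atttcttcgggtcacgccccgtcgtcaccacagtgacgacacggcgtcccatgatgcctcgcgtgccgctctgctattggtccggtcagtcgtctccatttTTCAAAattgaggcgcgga
Dtl: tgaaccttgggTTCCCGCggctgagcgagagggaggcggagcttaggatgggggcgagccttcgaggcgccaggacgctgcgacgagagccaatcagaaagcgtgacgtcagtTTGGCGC
Mcm6: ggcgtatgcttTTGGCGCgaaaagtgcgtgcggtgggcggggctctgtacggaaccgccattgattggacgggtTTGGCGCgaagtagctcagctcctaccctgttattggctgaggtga
Rrm1: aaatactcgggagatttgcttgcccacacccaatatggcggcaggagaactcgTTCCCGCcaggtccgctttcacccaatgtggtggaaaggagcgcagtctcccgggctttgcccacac

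Each motif was searched on both strands in the 300 bases around every RefSeq start site, and 20 mitosis and 19 replication members had an entry. The CHR was in 15 of 20 mitosis members (75%, 95% interval 50.9 to 91.3), in 1 of 19 replication members (5.26%, 0.133 to 26.0) and in 20.2% of 27025 genes. The exception among replication members was Mcm2, a subunit of the helicase. Either E2F site was in 5 of 20 mitosis members (25%, 8.66 to 49.1), 13 of 19 replication members (68.4%, 43.4 to 87.4) and 7.79% of all genes. Taken singly, TTCCCGC was in 1 mitosis and 9 replication members (5.29% of all genes), and TTGGCGC in 4 and 9 (2.85% of all genes). The longer forms TTTGGCGC and GGCGGGAA contain these letters or their complement. They were in 7 and 2 of 19 replication members, in 0 of 20 mitosis members and in 0.585% and 2.52% of all genes. The interval of 0 of 20 reaches 16.8%. CCAAT boxes (CCAAT) were frequent in both groups, in 16 of 20 mitosis and 14 of 19 replication members, against 41.1% of all genes. Other cell cycle genes that are not members were split in a like way. Of other mitosis genes, 30 of 46 held a CHR (65.2%) and 10 of 46 either E2F site (21.7%). Of other replication genes, 8 of 33 held a CHR (24.2%) and 20 of 33 either E2F site (60.6%). A match of letters is a description and does not show that a factor binds there. Members with no RefSeq entry in the table used were Ccna2, Tpx2, Smc4, Mcm4, Ccne2 and Atad2.

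**Figure D1:**
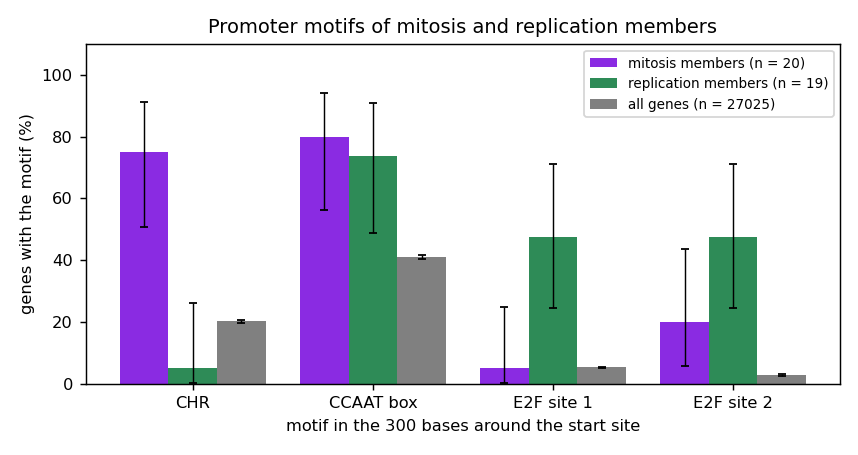
Share of genes (percent, bars, with exact 95% binomial intervals) whose 300 bases around the start site hold a motif, for mitosis members, replication members and all genes with an entry. Motifs are the CHR, a CCAAT box, E2F site 1 (TTCCCGC) and E2F site 2 (TTGGCGC), each drawn apart. The CHR stood at 75% of mitosis and 5.26% of replication members, and each of the E2F sites at 47.4% of replication members.

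At equal depth most macrophage nuclei held few molecules of these genes and a small group held many. Of 950 macrophage nuclei, 418 had 0 member UMIs among their 1500, the mean was 1.20 and the highest was 28. Of 161 epithelial nuclei, 57 had 0, the mean was 2.33 and the highest was 34. The variance was 4.25 times the mean in macrophage and 9.15 times the mean in epithelial nuclei, where evenly spread counts would give a ratio near 1. A nucleus was called cycling at 4 or more UMIs from 3 or more members. By this rule 49 macrophage nuclei (5.16%, 95% interval 3.84 to 6.76) and 23 epithelial nuclei (14.3%, 9.28 to 20.7) were cycling. Many macrophage nuclei lay near that limit, 51 with 3 member UMIs and 28 with 4. At 6 or more UMIs from 4 or more members, 24 macrophage nuclei (2.53%, 1.63 to 3.74) and 15 epithelial nuclei (9.32%, 5.31 to 14.9) remained. The macrophage share thus depended on the rule and on depth, and ran from 1.96% after thinning to 1000 UMIs up to 11.1% with 3 UMIs from 2 members. At each of the settings run, it was below the epithelial share at the same setting.

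**Figure D2:**
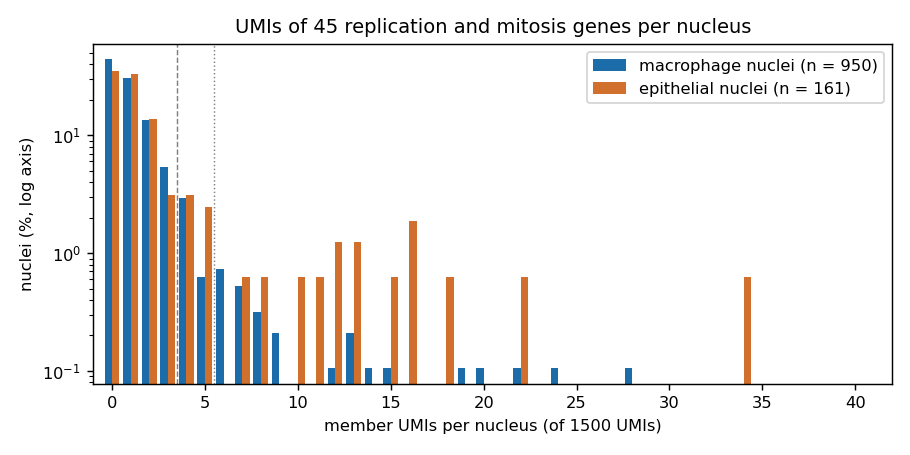
Percent of nuclei (log axis) by the number of UMIs of the 45 genes among 1500 UMIs, for 950 macrophage and 161 epithelial nuclei; the dashed line marks the limit of 4 UMIs and the dotted line that of 6 UMIs. Macrophage nuclei reach a highest value of 28 and epithelial nuclei one of 34, and in both sets most nuclei lie left of the dashed line.

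The share of cycling macrophage nuclei differed between the wells by the rule of 4 UMIs. In well 1, 43 of 654 macrophage nuclei were cycling (6.57%, 4.80 to 8.75), and in well 2 it was 6 of 296 (2.03%, 0.747 to 4.36). With a call by a UMI of Mki67 or Top2a alone the shares lay closer, at 4.89% (3.37 to 6.84) in well 1 and 3.38% (1.63 to 6.13) in well 2, and their intervals overlapped. Among epithelial nuclei it was 20 of 140 in well 1 and 3 of 21 in well 2, both 14.3%. Since each well is 1 library of unknown genotype, library and genotype cannot be told apart. Mki67, the proliferation marker that coats mitotic chromosomes, had a UMI in 3.16% of macrophage nuclei (2.14 to 4.48) and 9.94% of epithelial nuclei at equal depth. Before thinning these shares were 5.13% and 10.7%. The topoisomerase gene Top2a gave 2.21% and 9.32% at equal depth. No cell type in the matrix is known to lack these genes, so the share that free RNA alone would give was not measured. In the 328 barcodes of under 1000 UMIs that passed the filters, member genes summed to 1186 CPM (1048 to 1336). These barcodes are among the 1812 nuclei kept, so the value is not a measure of free RNA.

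Summed over all nuclei of a set, the members reached 829 CPM in macrophage nuclei (800 to 859) and 1215 CPM in epithelial nuclei (1165 to 1266). The difference lay with the mitosis genes, at 344 CPM (326 to 364) in macrophage and 742 CPM (703 to 783) in epithelial nuclei. Without the epithelial nucleus of most mitosis UMIs, which held 301 of them among its 22934 UMIs, the epithelial mitosis level was 586 CPM (551 to 622). Replication genes were at 485 CPM (463 to 508) in macrophage and 472 CPM (442 to 505) in epithelial nuclei, intervals that overlap. Within wells the replication levels were 531 and 468 CPM in macrophage and epithelial nuclei of well 1, and 384 and 518 CPM in those of well 2, so their order was not the same in both. In bulk sums like these, fewer dividing nuclei and less RNA per dividing nucleus cannot be told apart. At equal depth 40 members had at least 5 UMIs over both sets. Of these, 3 were at least 2-fold higher in macrophage nuclei and 21 at least 2-fold lower, where 21.8% of 12343 genes were higher and 28.3% lower by the same rule. The median ratio of macrophage to epithelial level was 0.244 for 20 mitosis members, 0.890 for 20 replication members and 0.847 for all genes. No mitosis member was 2-fold higher in macrophage nuclei and 15 of 20 were 2-fold lower.

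**Figure D3:**
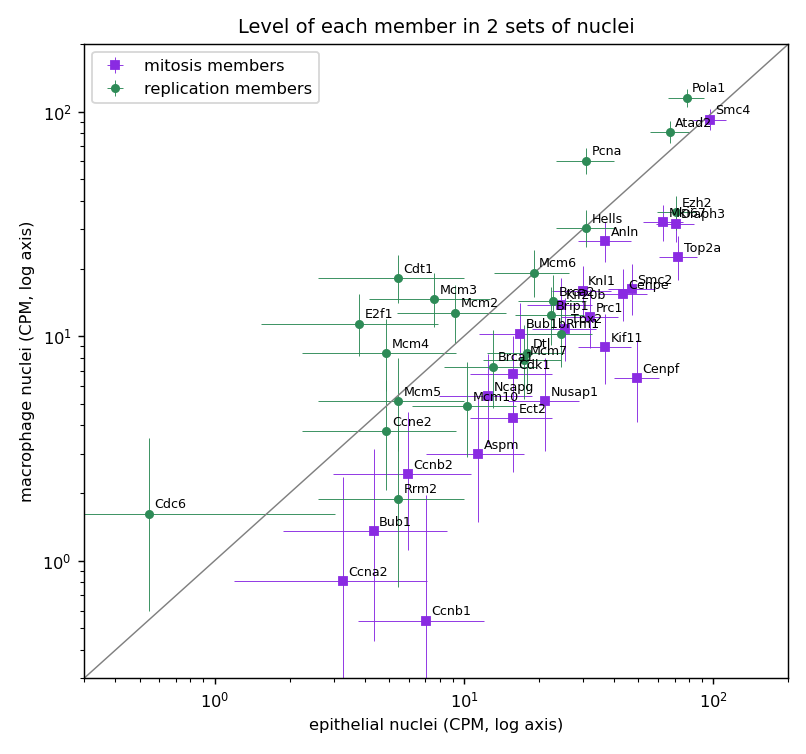
Level of each of the 45 genes (CPM over all counts, log axes, exact 95% Poisson intervals) in macrophage nuclei (vertical) against epithelial nuclei (horizontal), with the line of equal levels. Most mitosis genes (squares) lie below the line, whereas replication genes (circles) lie on both sides of it, Pcna at 60.5 CPM in macrophage and 31.0 CPM in epithelial nuclei.

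Cenpf, a kinetochore protein that appears late in the cell cycle, had the lowest ratio with many UMIs. It had 8.67 CPM in well 1 and 1.72 CPM in well 2 in macrophage nuclei, against 47.2 CPM and 74.9 CPM in epithelial nuclei. The ratio at equal depth was 0.06 (0.03 to 0.14). Kif11, the motor that pushes spindle poles apart, had 11.0 and 4.29 CPM in macrophage nuclei of wells 1 and 2, against 36.0 and 47.7 CPM in epithelial nuclei, a ratio of 0.18 (0.08 to 0.41). In both genes the epithelial values of the wells lay above both macrophage values. Mki67 had 39.8 and 15.5 CPM in macrophage nuclei of wells 1 and 2, against 60.2 and 95.4 CPM in epithelial nuclei, a ratio of 0.30 (0.18 to 0.50). Top2a had 28.0 and 10.3 CPM against 73.2 and 61.3 CPM, a ratio of 0.22 (0.12 to 0.40). For these genes too the wells did not overlap between the sets. That was not so for every mitosis member, since Diaph3 had 39.8 and 13.7 CPM against 73.8 and 34.1 CPM. The share of all genes without such overlap was not computed, and well 2 held 30 epithelial nuclei. Pcna, the sliding clamp, went the other way with 58.7 and 64.4 CPM in macrophage nuclei of wells 1 and 2, against 30.7 and 34.1 CPM in epithelial nuclei, a ratio of 2.27 (1.11 to 5.39). Pola1, the catalytic subunit of the polymerase that primes replication, was the most abundant member in macrophage nuclei, with 120 and 104 CPM against 79.1 and 68.1 CPM and a ratio of 1.43 whose interval held 1 (0.91 to 2.37).

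The balance of mitosis and replication molecules differed between cycling nuclei of the sets in well 1, and with both wells pooled. Mitosis genes gave 163 of 387 member UMIs in cycling macrophage nuclei (42.1%, 37.1 to 47.2) and 193 of 259 in cycling epithelial nuclei (74.5%, 68.8 to 79.7). Of 49 cycling macrophage nuclei, 14 held more mitosis than replication UMIs, 33 held more replication UMIs and 2 held equal numbers. Of 23 cycling epithelial nuclei, 17 held more mitosis UMIs, 4 held more replication UMIs and 2 were equal. With the stricter rule of 6 UMIs the mitosis shares were 46.3% and 78.9%. In well 1 the mitosis share was 40.8% (35.6 to 46.2) in 43 cycling macrophage nuclei and 75.9% (70.1 to 81.1) in 20 cycling epithelial nuclei. In well 2 it was 53.8% (37.2 to 69.9) in 6 macrophage nuclei, 21 of 39 UMIs, and 50% (23.0 to 77.0) in 3 epithelial nuclei, 7 of 14 UMIs. The lower macrophage share was thus seen in well 1, and the few cycling nuclei of well 2 did not show it. Among nuclei not called cycling, mitosis genes gave 35.8% of member UMIs in macrophage and 43.1% in epithelial nuclei. The called nuclei were chosen on these same UMIs, so the split was also measured on cell cycle genes that took no part in the call. Over all counts of cycling macrophage nuclei, other mitosis genes gave 622 UMIs and other replication genes 498. In cycling epithelial nuclei they gave 943 and 459. By these genes mitosis UMIs led in both sets, from lists of 54 mitosis and 42 replication genes. Single nuclei weighed in these sums, with 110 of the 622 mitosis UMIs in 1 macrophage nucleus and 263 of the 943 in 1 epithelial nucleus. Member shares came from thinned counts, so the difference between the sets cannot be compared in size with that by the members. In macrophage nuclei led by mitosis members, other mitosis genes gave 68.8% (64.9 to 72.5) of the UMIs of other mitosis and replication genes together, and in those led by replication members 41.2% (36.9 to 45.5). The corresponding epithelial shares were 68.2% (65.3 to 71.0) in 17 nuclei and 56.0% (46.5 to 65.2) in 4 nuclei. Of the 726 other mitosis UMIs behind the first, 263 lay in the epithelial nucleus of most mitosis UMIs.

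**Figure D4:**
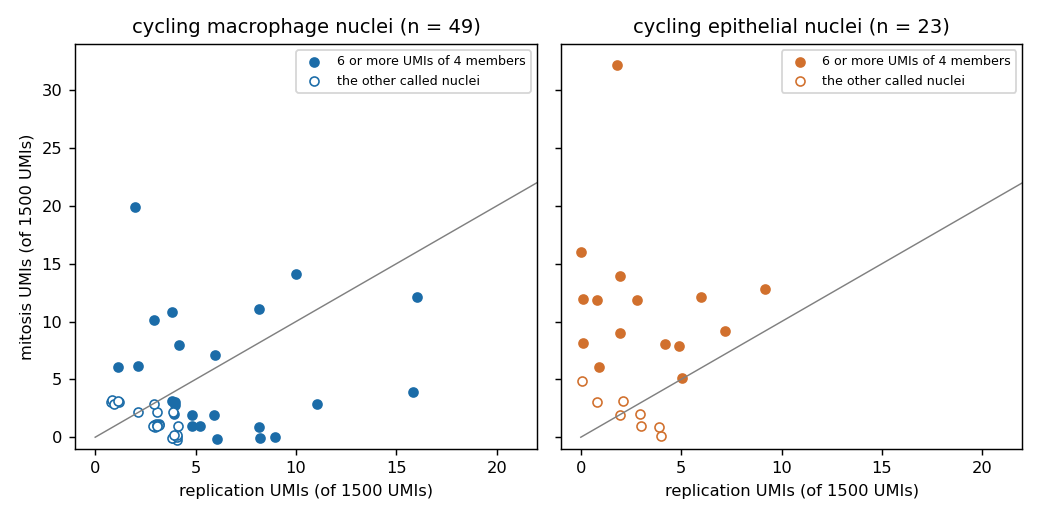
Mitosis UMIs (vertical) against replication UMIs (horizontal) of each cycling nucleus, of 1500 UMIs, in macrophage (n = 49, left) and epithelial nuclei (n = 23, right), with points moved slightly at random so that they do not hide each other. Filled points met the rule of 6 UMIs from 4 members; most macrophage points lie below the line of equal numbers (33 of 49) and most epithelial points above it (17 of 23).

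For each member the call was repeated on the remaining members, and its level in the nuclei so called was set against that in other macrophage nuclei. Since members share nuclei, and the rule that calls cycling nuclei used members, these ratios are a description. In macrophage nuclei 39 of 45 members had at least 10 UMIs and 38 of these were at least 2-fold higher in cycling nuclei, where 12% of 11830 genes were. The 6 members under 10 UMIs were Cdc6, Rrm2, Ccna2, Ccnb1, Ccnb2 and Bub1. In epithelial nuclei 35 members had 10 UMIs and all 35 were 2-fold higher, against 12.4% of 11370 genes (19.1% were lower). The share of a gene's UMIs that lay in cycling nuclei differed between mitosis and replication members, with overlap. Its median was 54.2% for mitosis and 25.3% for replication members in macrophage nuclei, and 81.6% and 37.4% in epithelial nuclei. Cycling nuclei were 5.16% of macrophage and 14.3% of epithelial nuclei, so the shares of the sets start from unlike baselines. Those macrophage nuclei held 215662 UMIs of all genes, against 3370198 in other macrophage nuclei. A small share can thus still be a higher level in cycling nuclei. The shares of UMIs use all counts of a nucleus, and single nuclei weigh in them. The epithelial nucleus with 301 mitosis UMIs held 29.7% of the mitosis UMIs of cycling epithelial nuclei, and the macrophage nucleus with the most, 99, held 18.6% of those of cycling macrophage nuclei. Without these the median mitosis shares were 49.3% in macrophage and 77.3% in epithelial nuclei. At 1500 UMIs per nucleus the same epithelial nucleus gave 12 mitosis UMIs, and the mitosis share of cycling epithelial nuclei without it was 73.6%.

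**Figure D5:**
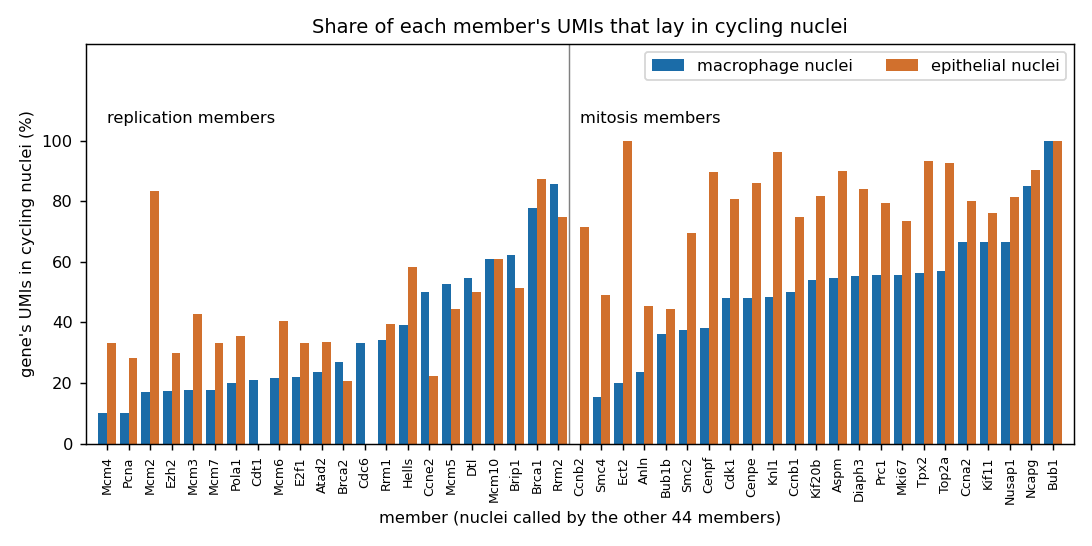
Percent of each gene's UMIs that lay in nuclei called cycling by the remaining members, in macrophage and epithelial nuclei, replication members left and mitosis members right. Among replication members with many UMIs, Pcna has 10.1% in cycling macrophage nuclei, and Mki67 has 55.8% among mitosis members. Cycling nuclei made up 5.16% of macrophage and 14.3% of epithelial nuclei at equal depth.

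Most licensing and helicase genes had the larger part of their UMIs outside cycling nuclei. Mcm2 to Mcm7 form the helicase ring. Mcm2 (17.0% of its UMIs in cycling macrophage nuclei), Mcm3 (17.6%), Mcm4 (10.0%), Mcm6 (21.7%) and Mcm7 (17.9%) lay mostly outside cycling nuclei, whereas Mcm5 had 10 of its 19 UMIs there. The level of Mcm6 was 82.5 CPM in cycling and 15.9 CPM in other macrophage nuclei, a ratio of 5.20 (2.72 to 9.35). The ratio was 3.55 (1.43 to 7.71) for Mcm2, 3.38 (1.45 to 7.04) for Mcm3 and 3.47 (1.03 to 9.33) for Mcm7. Their levels were thus higher in cycling nuclei despite the small shares. Mcm4 was the one member of at least 10 UMIs under 2-fold, at 1.85 (0.36 to 6.03). Mcm10, which helps start the helicase, had 11 of 18 UMIs in cycling nuclei. Cdt1, the licensing factor destroyed in S phase, had 13 of 62 UMIs in cycling macrophage nuclei and 0 of 6 in cycling epithelial nuclei. Cdc6, its partner, had 2 of 6 in macrophage nuclei.

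Among genes of DNA synthesis, Pcna lay mostly outside cycling nuclei. It stood at 123 CPM in cycling and 57.2 CPM in other macrophage nuclei, a ratio of 2.15 (1.32 to 3.35), with 22 of 217 UMIs in cycling nuclei. Pola1 stood at 470 and 97.7 CPM in that order, a ratio of 4.81 (3.73 to 6.13). Read per length of gene, the other macrophage nuclei held 138 CPM per 10 kb of Pcna and 2.98 CPM per 10 kb of Pola1. Over the 45 members, gene span and level in other nuclei had a Spearman correlation of 0.24. Whether introns were counted is not given, so the values per 10 kb are a description and not corrected levels. The gene spans of members run from 4.15 kb for Pcna to 486 kb for Diaph3, and counts in nuclei can include introns, so levels of long genes are not comparable by CPM alone. Rrm1 and Rrm2 encode the large and small subunits of ribonucleotide reductase, which makes DNA building blocks. Rrm1 had 13 of 38 UMIs in cycling macrophage nuclei and Rrm2 had 6 of 7.

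Genes of S phase control and repair ranged widely in how much of their RNA lay in cycling nuclei. Brca1, which acts in repair of broken replication forks, had 21 of 27 UMIs there (77.8%), its helicase partner Brip1 28 of 45 (62.2%) and Dtl, which marks Cdt1 for destruction, 17 of 31 (54.8%). Brca2, which loads the strand-exchange protein on DNA, was lower at 14 of 52 (26.9%). E2f1, a factor that switches on replication genes, had 9 of 41, and Ccne2, a cyclin of S phase entry, had 7 of 14. Of the chromatin genes, Hells, a remodeller needed for DNA methylation, stood at 216 CPM in cycling and 19.8 CPM in other macrophage nuclei, a ratio of 10.9 (7.27 to 16.3). Atad2, a chromatin reader, was at 391 and 65.4 CPM, a ratio of 5.97 (4.49 to 7.86). Ezh2, the histone methyltransferase of the repressive Polycomb complex, was at 105 and 30.8 CPM, a ratio of 3.42 (2.06 to 5.46), and 82.5% of its UMIs lay outside cycling nuclei.

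The mitotic cyclins had few UMIs in macrophage nuclei. Ccnb1 had 2 UMIs, Ccna2 had 3 and Ccnb2 had 9 in all macrophage nuclei, and Ccnb2 had 0 of 8 in cycling ones at the depth used. Their kinase gene Cdk1 had 12 of 25 UMIs in cycling nuclei, 55.6 CPM against 3.86 CPM, a ratio of 14.4 (6.02 to 34.3). In epithelial nuclei Ccnb1 had 9 of 12 UMIs in cycling nuclei and Cdk1 21 of 26. Spans of Ccna2, Ccnb1 and Ccnb2 were 7.29, 7.92 and 13.9 kb.

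Kinetochore genes with more than 5 UMIs had 36.1% to 48.3% of their UMIs in cycling macrophage nuclei. Cenpe, a motor that moves chromosomes to the spindle centre, had 27 of 56 UMIs in cycling nuclei, Knl1, the kinetochore scaffold, 28 of 58, and Bub1b, a checkpoint protein, 13 of 36. Cenpf had 8 of 21. Bub1, the checkpoint kinase, had 5 of 5 and no UMI in other macrophage nuclei. In epithelial nuclei Knl1 had 51 of 53 UMIs in cycling nuclei and Cenpf 79 of 88, of which 21 and 30 lay in the nucleus with 301 mitosis UMIs.

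Spindle genes had 54.2% to 66.7% of their UMIs in cycling macrophage nuclei. Kif11 had 22 of 33 UMIs in cycling nuclei, at 104 CPM against 3.26 CPM, a ratio of 31.9 (14.8 to 72.8). Nusap1, which binds spindle microtubules, had 12 of 18, Tpx2, an activator of the kinase Aurora A, 22 of 39, and Prc1, which bundles the central spindle, 25 of 45. Kif20b, a motor of late division, had 26 of 48 and Aspm, which organises spindle poles, 6 of 11. In epithelial nuclei their shares ran from 76.2% for Kif11 to 93.3% for Tpx2. Without that nucleus, which held 18 of 31 Nusap1 UMIs of cycling epithelial nuclei, they ran from 65% for Nusap1 to 89.7% for Tpx2.

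Among genes of mitotic chromosomes, Ncapg, a condensin subunit, had 17 of 20 UMIs in cycling macrophage nuclei (85%). Top2a was at 215 CPM in cycling and 10.1 CPM in other macrophage nuclei, a ratio of 21.4 (13.4 to 34.4), and Mki67 at 292 and 14.8 CPM, a ratio of 19.7 (13.4 to 29.1). Smc2 and Smc4 are the paired arms of condensin, with 37.5% of Smc2 and 15.4% of Smc4 UMIs in cycling nuclei. Smc4 was at 82.9 CPM in other macrophage nuclei. For cytokinesis, Diaph3, a formin that builds actin, was at 295 CPM in cycling and 14.8 CPM in other nuclei, a ratio of 19.9 (13.5 to 29.5). Anln had 22 of 93 UMIs in cycling nuclei and Ect2, which activates the furrow, 3 of 15. In epithelial nuclei Ect2 had 28 of 28, of which 17 lay in that one epithelial nucleus.

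Other cell cycle genes outside the members were set against the same cycling nuclei. Of other replication genes with 10 UMIs, 32 of 39 were at least 2-fold higher in cycling macrophage nuclei and 2 lower, where 12% and 16.5% of 11830 genes were. Of other mitosis genes it was 26 of 33 higher. Their median ratios were 4.88 and 9.38, against 0.990 for all genes. Highest among mitosis genes were the central-spindle motor Kif23 (16 of 18 UMIs), Cit (22 of 26) and the DNA repair enzyme Neil3 (30 of 38), and lowest were Ckap2l at 1.14 (0.23 to 3.58), Cenpa at 1.19 (0.47 to 2.55) and Bub3 at 1.32 (0.67 to 2.38). Highest among replication genes were E2f7 (12 UMIs in cycling and 0 in other nuclei), the polymerase gene Pole at 33.0 (18.4 to 61.4) and E2f8 (9 of 14 UMIs). Lowest were Gins2 (0 of 17 UMIs), Msh6 (1 of 35) and Rfc5 (1 of 20), whose intervals held 1 and reached 3.79, 2.74 and 5.17.

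Genes of the step before replication gave smaller ratios than those of replication and mitosis. Of 11 cyclins, kinases and factors of G1, 5 were at least 2-fold higher in cycling macrophage nuclei and 0 were 2-fold lower, with a median ratio of 1.80, beside 12% and 0.990 for all genes. Their summed level, of which Ccnd3 (3904 UMIs) and Cdk6 (2326 UMIs) make up the most, was at 0.97 (0.88 to 1.07) of that in other macrophage nuclei, and that of 15 inhibitors and pocket proteins at 1.06 (0.94 to 1.20). Of the inhibitors with 10 UMIs, 3 of 12 were 2-fold higher, with a median ratio of 1.17. Ccnd3 (0.65, 0.55 to 0.77), Cdk4 (0.84, 0.10 to 3.27) and Cdk6 (0.95, 0.79 to 1.13), which act at G1 entry, were the lowest of the G1 list. Ccne1 (5 of 11 UMIs in cycling nuclei), Cdc25a (3.68) and E2f2 (3.56) were the highest. In the inhibitor list Cdkn2c (7.81), the pocket protein gene Rbl1 (4.09) and Ccng1 (2.17, 0.66 to 5.55) were highest. Lowest were Ccng2 (0.64, 0.13 to 1.95), Btg1 (0.74, 0.55 to 0.97) and the retinoblastoma gene Rb1 (0.82, 0.61 to 1.07). Among all genes of at least 20 UMIs at equal depth, the highest ratios outside the members were Ncapd2, a condensin subunit, at 16.2, and Timeless (9.12) and Rad51b (8.90). Enthd1, Atad5, Btbd11, Kif24, Hist1h2ap, Wdhd1 and Topbp1 were at 8.68 down to 6.18. Lowest were Ms4a8a (0 UMIs in cycling and 109 in other nuclei), Lonp1 (0 and 80), Slc6a8 (0 and 59), Dpy30 (0 and 39) and Cd226 (0 and 35). The intervals of Slc6a8 (0 to 1.01), Dpy30 (0 to 1.55) and Cd226 (0 to 1.74) held 1.

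Cycling macrophage nuclei carried macrophage markers at 4108 CPM (3842 to 4388), against 5330 CPM in other macrophage nuclei. Epithelial markers summed higher in cycling nuclei, at 1762 CPM (1589 to 1948) against 1515 CPM (1474 to 1557), intervals that do not overlap. By the rule of 6 UMIs the cycling value was 1569 CPM (1350 to 1812). Of the 10 epithelial markers, Elf5 and Krt19 were at 0 in cycling nuclei. No UMI of the epithelial rule genes was found in 28 of 49 cycling nuclei (57.1%) and 633 of 901 others (70.3%). Monocyte markers were at 199 CPM (144 to 269) against 450 CPM (427 to 473), with Ly6c2 at 0. Whether RNA of other cells or doublets add to the cycling share was not tested. Median depth of cycling and other macrophage nuclei was 3556 and 3319 UMIs.

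Macrophage nuclei were also split by the first of several marker rules they met, and 154 of 950 met more than 1. In resident-like nuclei, with 3 or more UMIs of F13a1, Mrc1, Lyve1, Cd163 and Cbr2, 4 of 145 were cycling (2.76%, 0.757 to 6.91). Most came from well 2, where 1 of 128 was cycling, against 3 of 17 in well 1. Their member UMIs were at 0.76 (0.63 to 0.90) of the level in all other macrophage nuclei, but the direction was not the same in the wells. Against the other macrophage nuclei of the same well, the ratio was 1.79 (1.27 to 2.46) in the 17 nuclei of well 1. It was 0.75 (0.58 to 0.97) in the 128 nuclei of well 2. The 17 nuclei of well 1 held 40 member UMIs. Of these, 1 nucleus gave 16 replication and 4 mitosis UMIs, and another gave 6 and 2. The ratio of well 1 thus leaned on few nuclei, which its interval does not take into account. Mmp12-high nuclei were at 1 of 45, with member UMIs at 0.58 (0.39 to 0.82). Within well 1 their ratio was 0.54 (0.36 to 0.78). Within well 2 it was 0.55 (0.11 to 1.62), from 3 member UMIs in 6 nuclei, an interval that holds 1. Inflammatory nuclei, marked by Il1b and Nlrp3, were at 7 of 119 (5.88%, 2.40 to 11.7), immediate-early nuclei at 8 of 155 (5.16%, 2.25 to 9.92) and Gpnmb-positive nuclei at 1 of 22. For inflammatory nuclei too the direction of member UMIs differed between wells. Their ratio was 0.80 (0.66 to 0.97) within well 1 and 1.82 (1.03 to 3.02) within well 2, the latter from 16 UMIs in 10 nuclei. The steady nuclei, which met none of these rules, were at 28 of 464 (6.03%, 4.05 to 8.60), with member UMIs at 1.26 (1.12 to 1.42), and at 1.17 (1.02 to 1.35) within well 1 and 1.16 (0.89 to 1.51) within well 2. The intervals of the shares overlap for every pair of states. Epithelial nuclei with a UMI of Kit, a receptor kinase of luminal progenitors, were at 7 of 52 (13.5%, 5.59 to 25.8). Those without were at 16 of 109 (14.7%, 8.63 to 22.7). Member UMIs were at 0.61 (0.48 to 0.78) in Kit-positive relative to Kit-low nuclei. Single epithelial nuclei held up to 34 of the 375 member UMIs, which that interval does not take into account. Of the Kit-positive nuclei, 5 came from well 2.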

How the data were processed

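Nuclei of TAMs were profiled with the 10x Genomics 3' v3 kit, and the authors deposited raw UMI counts for 32285 genes and 1838 barcodes of 2 wells. Per the submitters' processing notes, Cell Ranger 5.0 was run on mm10. Per the file headers, the matrix was written by version 5.0.1. How barcodes were called and whether introns counted is not given in the sources used. Antisense and overlapping genes may share reads. The members and all lists were chosen with earlier results of these data known.

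Barcodes with at least 500 UMIs, 300 genes and at most 5% mitochondrially encoded UMIs were kept (21 removed). Scrublet in scanpy 1.11.5, run per well, marked 0 of 1377 nuclei in well 1 and 5 of 440 in well 2 (1.14%). In well 1 the caller thus found none, and doublets may remain. A level is the CPM of a gene's summed counts over a set of nuclei. Shares and classes used counts thinned to 1500 UMIs per nucleus with a fixed seed. Ratios with cycling nuclei used all counts. Positions come from GENCODE vM21 and promoters from RefSeq tables of GRCm38.p6. Named genes were all members, the 3 highest and 3 lowest ratios of each other list (minimum 10 UMIs), and the 10 highest and 5 lowest of all other genes (minimum 20 UMIs at equal depth), predicted genes left out. Intervals are Clopper-Pearson for shares, Poisson for sums and conditional binomial for ratios, at 95%. With 1 pooled sample, no p-value was computed. The ratio script was tested on simulated data. Tools were pandas 2.3.3, scipy 1.17.1, numpy 2.4.6 and matplotlib 3.10.9 under Python 3.11.15.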

Additional observations from a re-analysis of the deposited data

Results flagged for a closer look

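Nuclei outside the macrophage and epithelial sets also held cycling nuclei. Of 55 nuclei at depth that met both rules, 8 were cycling (14.5%, 95% interval 6.50 to 26.7), with 74.5% of their member UMIs from mitosis genes. Of 135 that met neither rule, 16 were cycling (11.9%, 6.93 to 18.5), with 75% from mitosis genes. These nuclei take no part in the comparisons above and were noted because their signal lies in data that those comparisons leave out.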

How the results depend on the processing

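Of the shares and levels under the alternatives, 96 stayed within the counting interval of the reported value and 36 lay outside it. The cycling share of macrophage nuclei (5.16% as reported) was 1.96% after thinning to 1000 UMIs, 10.7% at 2500 UMIs, 11.1% with 3 UMIs from 2 members, 2.53% with 6 from 4, 3.05% without Diaph3, Pola1 and Atad2, and, chosen after seeing the data, 2.21% without Pola1, Atad2, Pcna, Smc4 and Ezh2 and 2.03% in well 2. In steady nuclei it was 2.36%, 11.8%, 12.5%, 3.45% and 3.88% under the first 5 of these settings. In immediate-early nuclei it was 0.699%, 12.5%, 12.9% and 1.94% under the first 4. Inflammatory nuclei gave 2.17% at 1000 UMIs and 1.68% with 6 from 4, resident-like nuclei 0.746% at 1000 UMIs and 17.6% in well 1, and Gpnmb-positive nuclei 50% in well 1 (1 of 2). Mmp12-high nuclei gave 15.4% at 2500 UMIs and 0% with 6 from 4, with a call by Mki67 or Top2a and without Diaph3, Pola1 and Atad2; 0 of 45 allows a share of up to 6.67% at 3 counts, and its exact 95% interval reaches 7.87%. The mitosis share of cycling macrophage nuclei was 60.4% with the call by Mki67 or Top2a, which are mitosis genes, 47.4% without Diaph3, Pola1 and Atad2, and 53.8% in well 2, where that of cycling epithelial nuclei was 50%; over all nuclei of well 2 it was 41.2% in macrophage and 48.5% in epithelial nuclei. The summed macrophage level was 900.4 CPM with nuclei of both rules counted, 926 CPM in well 1 and 618 CPM in well 2. The epithelial level was 1438 CPM in well 2 and 1053 CPM without the nucleus of most mitosis UMIs; all values of well 2 alone, and those without a nucleus, were chosen after seeing the data. Of other cell cycle genes, 66 were at 2-fold or more in cycling macrophage nuclei at the reported setting, where 12% of 11830 genes were. They were 5 of 11 G1, 32 of 39 replication, 26 of 33 mitosis and 3 of 12 inhibitor genes. With no share over all genes beside it, the count was 59 to 85 under 10 alternatives. It was 35 from thinned counts, where fewer genes reach 10 UMIs. The cause of the other moves was not tested. At this depth 6 members stay under 10 UMIs in macrophage nuclei. No paired analysis was possible because no column is tied to a sample and each genotype has 1 sample.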

Other observations

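In epithelial nuclei, genes outside the members separated cycling from other nuclei more widely for mitosis than for replication. Other mitosis genes with 10 UMIs were at least 2-fold higher in 41 of 42 cases, with a summed ratio of 11.3 (10.2 to 12.5). For other replication genes it was 28 of 33, with 3.72 (3.32 to 4.17). Of all 11370 genes, 12.4% were higher by the same rule. Without the epithelial nucleus of most mitosis UMIs, the mitosis values were 37 of 38 and 9.25 (8.29 to 10.3). In cycling epithelial nuclei the retinoblastoma gene Rb1 was at 239 CPM, against 685 CPM in other epithelial nuclei, a ratio of 0.35 (0.25 to 0.47). The antiproliferative gene Btg1 was at 0.52 (0.33 to 0.77), and Rbl1, a relative of Rb1, at 5.39 (3.02 to 9.47). In cycling macrophage nuclei the ratio of Rb1 was 0.82 (0.61 to 1.07). These genes were picked out after their values had been seen, and the difference between the sets was not tested.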
